A study of Mus musculus with 43 samples.

Results

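The comparison described here asked which genes were higher or lower when the PiZ transgene was homozygous in livers that lacked the insulin receptor. It set 7 mice labelled PiZ x LIRKO (ZZ), called ZZ LIRKO below, against 4 LIRKO mice, so 11 of the 43 liver RNA-seq libraries of the series carried it. The 4 LIRKO mice were 1468, 1474, 1483 and 1600, and the 7 ZZ LIRKO mice were 1783, 1810, 1813, 1855, 1858, 1876 and 1877. LIRKO stands for liver insulin receptor knockout, and the deletion was present in the control group of this comparison as well as in the ZZ LIRKO mice. The PiZ transgene carries the Z allele of human SERPINA1, and ZZ marks homozygous carriers. Livers of 3 WT mice and 3 PiZ (ZZ) mice with an intact receptor, called ZZ below, were in the same table and gave the corresponding comparison with the receptor present. The mice were males of mixed C57BL6/J x FVBN background between 4 and 5 months of age, and each library of these groups came from a mouse with its own number. The labels give neither the driver of the receptor deletion nor that of the transgene, and human transgene reads were not analysed here.

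SERPINA1 encodes alpha-1 antitrypsin, a protease inhibitor that hepatocytes secrete. The Z variant misfolds and accumulates as polymers in the endoplasmic reticulum of hepatocytes, and carriers can develop inflammation, fibrosis and liver tumours. The insulin receptor is a tyrosine kinase whose signal in hepatocytes promotes lipid and glycogen synthesis and keeps the transcription factor FOXO1 out of the nucleus.

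Insr, the insulin receptor gene, checked the labels. Its log2 CPM (counts relative to library size, the unit of every level below) were 5.90, 5.60, 5.48 and 5.93 in the 4 LIRKO livers and 5.44 to 5.87 (median 5.73) in the 7 ZZ LIRKO livers. The groups overlapped, with a difference of -0.03 ± 0.10 (standard error, SE; adjusted p = 0.892), and both means lay below those of WT (7.01) and ZZ (6.49). Reads remained on the gene in every LIRKO library, and which exons they covered cannot be read from gene totals. Foxo1, the factor that the receptor restrains, differed by 0.06 ± 0.22 (adjusted p = 0.903). None of the 5 mouse Serpina1 genes passed by limma, with voom weights or at an unadjusted p under 0.05: Serpina1a to Serpina1e differed by -0.45 to 0.18, and reads of these near-identical copies are uncertain.

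Libraries held 64305557 to 90092990 reads on listed genes in LIRKO and 38177840 to 82788241 in ZZ LIRKO. Low read counts were even numbers in 60.2% to 64.1% of cases in LIRKO and in 46.4% to 61.2% in ZZ LIRKO, and without the libraries at or under 55% the main count below was 1265 genes. The libraries of mice 1876 and 1877 stood apart from the other 5 ZZ LIRKO libraries on the third principal component, at 36.5 and 27.9 against -13.0 to 0.26. They also stood apart on a clock value, the mean log2 CPM of 5 clock output genes (Dbp, Tef, Per3, Nr1d2 and Hlf) minus that of 5 genes of the opposite phase (Arntl, Npas2, Clock, Cry1 and Nfil3). It was -1.89 and -0.35 in these livers, 1.95 to 3.45 in the other 5 and 2.31 to 4.29 in LIRKO. The mouse numbers of the groups do not overlap, so cohort and genotype cannot be told apart. Counts without mice 1876 and 1877 stand beside most counts of lists below.

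Of 13690 genes tested, 1445 (10.6%) differed between ZZ LIRKO and LIRKO at an adjusted p under 0.05 in limma's moderated test with Benjamini-Hochberg adjustment over all genes. They were 935 higher genes (6.83%) and 510 lower genes (3.73%). The change was at least 1 log2 unit for 412 of them (3.01%), 345 higher (2.52%) and 67 lower (0.489%). For 991 of the genes that passed (7.24% of those tested) no value of one group reached into the range of the other. Without mice 1876 and 1877 the count was 1607, of which 1183 were also called with all livers. Leaving out 1 LIRKO liver gave 621 genes without 1468, 906 without 1483, 995 without 1474 and 1174 without 1600, leaving out 1 ZZ LIRKO liver gave 1153 (without 1813) to 1500, and 616 of the 621 were calls of the full comparison.

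With the receptor present, ZZ against WT gave 4149 genes (30.3%), 2205 higher (16.1%) and 1944 lower (14.2%). The 2 comparisons share no mouse. Libraries of WT mice 1586 and 1601 and ZZ mouse 1846 were above 0 log2 CPM of Prss2, a pancreatic trypsinogen. The count of ZZ against WT was lower without them, as given in the section on processing below. Genes higher in both numbered 676, which is 72.3% of the genes higher in ZZ LIRKO and 30.7% of those higher in ZZ. Genes lower in both numbered 225, or 44.1% of the genes lower in ZZ LIRKO and 11.6% of those lower in ZZ, and 28 genes passed in opposite directions. Among the 676, 619 had a smaller rise without the receptor, and their median log2 change was 0.86 without it and 1.51 with it. Among the 225, 188 had a smaller fall without the receptor, with medians of -0.46 and -0.66.

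The difference between the 2 changes, tested directly as an interaction, passed for 1061 genes (7.75%), 415 higher (3.03%) and 646 lower (4.72%) without the receptor. It passed for 144 of the 901 genes that moved the same way in both, for 56 of the 516 called only without the receptor and for 793 of the 3220 called only with it. For most genes called in only one comparison, a difference between the comparisons was therefore not shown. These splits rest on the deposited scaling: when each library was scaled to its sum of reads instead, the median of all genes in ZZ against WT moved from -0.04 to 0.23, and 89.6% of its calls were higher instead of 53.1%. The interaction then gave 2313 calls of which 5.71% were higher, instead of 39.1%. In ZZ LIRKO against LIRKO the same change moved the median only to -0.0015, and the share of calls that were higher from 64.7% to 68.6%.

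**Figure D1:**
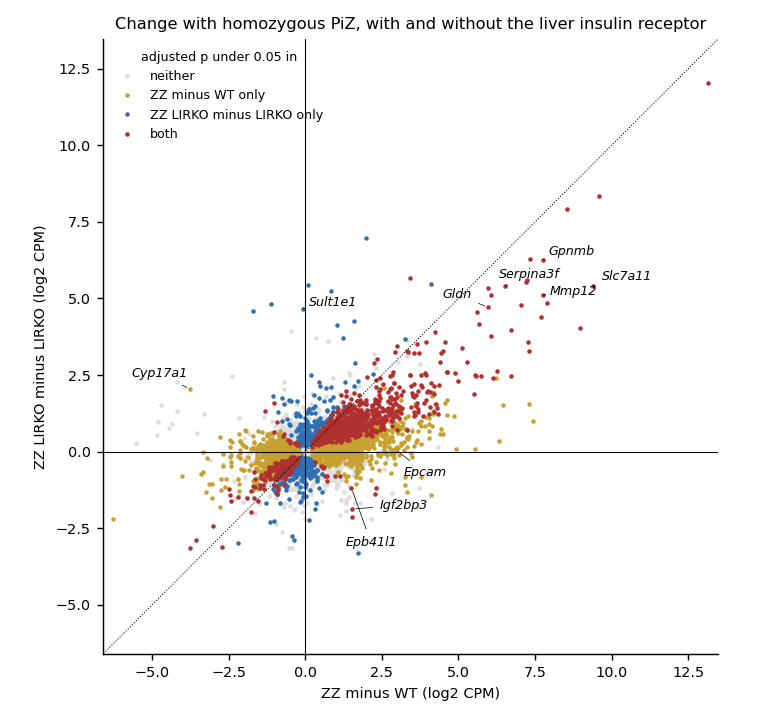
Change of each tested gene in ZZ minus WT (horizontal axis, log2 CPM) and in ZZ LIRKO minus LIRKO (vertical axis, log2 CPM), with colours for the comparison in which its adjusted p was under 0.05 and a dotted line of equal change. Most genes called in both lie in the upper right, below the dotted line, and 676 of them are higher in both; Sult1e1 lies on the vertical axis and Epcam on the horizontal axis.

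The 15 largest rises by the rule for named genes, which admits only genes whose groups do not overlap, came from genes of several functions. Serpina3f, a serine protease inhibitor of a mouse gene cluster with near-identical members whose reads are uncertain, had the largest. It stood at 2.11, 2.07, 1.98 and 2.16 in the LIRKO livers and at 6.82 to 8.33 (median 7.54) in ZZ LIRKO. The rise was 5.41 ± 0.22 (42.5-fold, adjusted p = 1.82e-10), and the ZZ mean was 8.44 against 1.91 in WT. Gldn, which encodes gliomedin, an adhesion protein of peripheral nerve nodes, followed with 0.12, 0.12, -0.20 and -1.07 in LIRKO and 3.54 to 5.46 in ZZ LIRKO (4.71 ± 0.53, adjusted p = 6.8e-05). Both genes passed under each of the 23 alternative settings tried for them.

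Ly6d, a surface antigen of early B cells, ranged from 1.44 to 3.26 in LIRKO and from 3.89 to 7.56 in ZZ LIRKO (3.59 ± 0.64, adjusted p = 0.0024). The rise with the receptor present was 7.28 ± 0.83, with an interaction of -3.69 ± 1.05 (adjusted p = 0.0415), which did not pass without any 1 of several livers and had an adjusted p of up to 0.108. Prom2, an epithelial membrane protein, was higher by 3.23 ± 0.53 (adjusted p = 0.00144), and Igha, the constant region of immunoglobulin A, by 2.59 ± 0.49 (adjusted p = 0.00332). Igha had 212 to 815 reads in the LIRKO libraries and 583 to 5791 in the ZZ LIRKO libraries. Lcn2, a siderophore-binding protein of the acute phase, measured 2.22, 4.36, 3.51 and 4.04 in LIRKO and 4.72 to 7.20 (median 6.08) in ZZ LIRKO, a rise of 2.57 ± 0.43 (adjusted p = 0.00156). Slpi, an inhibitor of neutrophil elastase, rose by 2.34 ± 0.39 and Mt2, a metallothionein that binds zinc, by 1.77 ± 0.34 (adjusted p = 0.00169 and 0.0036). That the groups do not overlap was a condition of the rule for these genes.

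Rragd, which encodes RagD, a GTPase that helps recruit mTORC1 to lysosomes, had the smallest standard error of the 15. Its levels were 2.31, 2.03, 2.12 and 1.97 in LIRKO and 3.70 to 4.36 (median 3.97) in ZZ LIRKO, a rise of 1.86 ± 0.14 (adjusted p = 6.34e-07). Rragd rose by 3.62 ± 0.18 with the receptor, and the interaction of -1.76 ± 0.23 (adjusted p = 0.000565) passed in every alternative tried for it. Ddr1, a collagen receptor kinase, was higher by 1.83 ± 0.25 and Gvin1, an interferon-inducible GTPase, by 1.80 ± 0.26 (adjusted p = 0.000393 and 0.000509). Cdkn1a, the p21 inhibitor of the cell cycle, spanned 2.11 to 5.69 in ZZ LIRKO against 1.24 to 1.61 in LIRKO (2.07 ± 0.52, adjusted p = 0.0175). Without LIRKO mouse 1468 the adjusted p of Cdkn1a was 0.0611, and with the clock value as a covariate its change was 1.12.

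**Figure D2:**
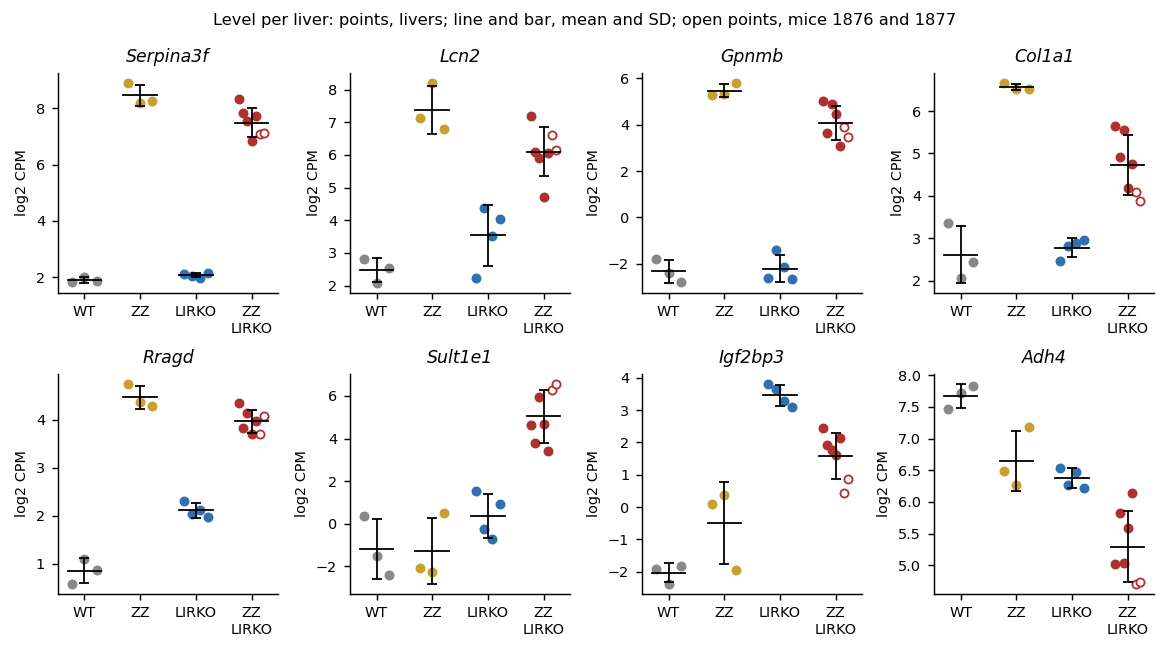
Log2 CPM (vertical axis) of 8 named genes in each liver of the WT, ZZ, LIRKO and ZZ LIRKO groups (horizontal axis), with the mean and SD of each group; open points are mice 1876 and 1877. ZZ LIRKO livers lie above all LIRKO livers for Serpina3f, Lcn2, Gpnmb, Col1a1, Rragd and Sult1e1 and below them for Igf2bp3 and Adh4. No overlap of these groups was a condition for genes picked as largest or shared changes. Sult1e1 did not pass in ZZ against WT.

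Markers of recruited and lipid-associated macrophages were the list with the largest share of members that rose: 12 of 17 tested, with none lower. Of all genes tested, 6.83% rose. The list's median change was 1.43, against -0.01 over all genes, and 16 of the 17 members were above 0. The count lay between 11 and 14 under every setting, and was 12 without LIRKO mouse 1468 and 14 without mice 1876 and 1877. In whole liver, more cells of a type and more RNA per cell cannot be told apart. Summed over the list, these genes took 428 to 562 CPM in LIRKO and 346 to 680 CPM in ZZ LIRKO, so the sum overlapped while the mean of log2 levels did not (1.69 to 2.14 against 3.21 to 4.44).

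Gpnmb, a transmembrane glycoprotein of lipid-laden macrophages, had 12 to 32 reads in the LIRKO libraries and 496 to 1933 in ZZ LIRKO. On the log2 scale that was -2.59, -1.42, -2.13 and -2.65 against 3.06 to 5.00 (median 3.91), a rise of 6.26 ± 0.35 (adjusted p = 1.52e-08). Mmp12, the macrophage elastase, moved from 20 to 32 reads in LIRKO to 237 to 2323 in ZZ LIRKO, a rise of 5.11 ± 0.76 (adjusted p = 0.000664). Trem2, a lipid receptor of macrophages, had 6, 40, 26 and 34 reads in LIRKO and 71 to 313 in ZZ LIRKO (3.37 ± 0.47, adjusted p = 0.000429), and library 1468 was far below the other 3. Itgax, the integrin CD11c, was at -0.44, 0.06, 0.06 and -0.10 in LIRKO and 1.51 to 3.34 in ZZ LIRKO (2.56 ± 0.30, adjusted p = 0.000107). Monocyte genes rose as well: Ly6c2, a surface antigen of inflammatory monocytes, by 2.12 ± 0.24, and Ccr2, the receptor that brings monocytes to tissue, by 1.66 ± 0.26 (adjusted p = 6.99e-05 and 0.000978). Clec7a, a receptor for fungal glucan, and Lgals3, a lectin, rose by 1.59 ± 0.22 and 1.43 ± 0.21.

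Each of the 12 members also rose in ZZ against WT, where 16 of 17 passed and 16.1% of all genes tested rose. Lgals3 rose by 3.16 ± 0.27 with the receptor, and its interaction passed (-1.73 ± 0.34, adjusted p = 0.00764). The interaction was lower without the receptor for 6 of the 17 members and higher for none, and the count of 6 ran from 1 to 12 over the settings. The other 11 members therefore had no shown difference between the 2 changes, among them Gpnmb (interaction -1.51 ± 0.58, adjusted p = 0.12) and Mmp12 (-2.65 ± 1.24, adjusted p = 0.198).

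The promoters of 3 of these genes are shown because each holds an AP-1 motif, the letters TGANTCA bound by JUN and FOS proteins, upstream of and close to its start. The windows come from RefSeq on GRCm38.p6, each holds the 250 bases before the annotated start written 5′ to 3′ on the strand of the gene, and capitals mark the motif. Mmp12 is at chr9:7347124-7347373 on the plus strand (motif 44 to 38 bases before the start), Trem2 at chr17:48346151-48346400 on the plus strand (9 to 3 bases) and Itgax at chr7:128129300-128129549 on the plus strand (56 to 50 bases).
Mmp12: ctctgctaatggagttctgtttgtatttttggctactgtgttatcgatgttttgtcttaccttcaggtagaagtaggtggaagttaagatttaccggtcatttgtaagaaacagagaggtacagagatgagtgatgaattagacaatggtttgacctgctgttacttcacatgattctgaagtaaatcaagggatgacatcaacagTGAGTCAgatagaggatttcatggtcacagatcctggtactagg
Trem2: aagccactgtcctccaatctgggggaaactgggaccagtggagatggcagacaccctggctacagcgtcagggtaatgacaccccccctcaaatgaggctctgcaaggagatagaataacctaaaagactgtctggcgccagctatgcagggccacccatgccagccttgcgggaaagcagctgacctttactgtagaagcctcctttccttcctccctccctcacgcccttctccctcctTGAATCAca
Itgax: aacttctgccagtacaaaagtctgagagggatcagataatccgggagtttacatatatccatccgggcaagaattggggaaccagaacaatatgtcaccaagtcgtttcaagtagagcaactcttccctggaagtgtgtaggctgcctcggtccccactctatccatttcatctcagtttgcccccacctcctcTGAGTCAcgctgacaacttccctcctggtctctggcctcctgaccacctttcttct
Over windows of 250 bases before to 50 after the start, 4 of the 12 members that rose held the motif on either strand (Gpnmb, Itgax, Mmp12 and Trem2, that of Gpnmb not within the 250 bases before the start). It stood in 8.97% of the 27025 genes with a window, and in 6.54% of the 10309 tested genes among them. No other motif searched overlapped the marked letters, and a match is a run of letters that was not tested as a binding site.

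Kupffer cells are the resident macrophages of the liver, seeded before birth. Of 14 of their markers tested, 3 rose (C1qb, Cd68 and Marco), beside 6.83% of all genes tested, and none fell. None of the 3 passed without LIRKO mouse 1468, and 2 members rose without mice 1876 and 1877. Clec4f, a lectin confined in the liver to Kupffer cells, was at 7.002 ± 0.14 (SD) in LIRKO and 7.04 ± 0.15 in ZZ LIRKO, a difference of 0.04 ± 0.12 (adjusted p = 0.862). Timd4, a phosphatidylserine receptor of long-resident Kupffer cells, had values of 3.36 to 3.61 in LIRKO and 2.25 to 3.33 in ZZ LIRKO, which do not overlap, but the difference of -0.69 ± 0.27 did not pass (adjusted p = 0.108, with 0.035 under voom weights and 0.0238 with the 11 livers alone). Clec4f and Timd4 were picked after their values were seen. Marco, a scavenger receptor, rose by 1.41 ± 0.40 here (adjusted p = 0.0313) and differed by 0.11 ± 0.52 in ZZ against WT. Marco did not pass without LIRKO mouse 1468, 1474 or 1483 or ZZ LIRKO mouse 1783, 1813 or 1855 (adjusted p = 0.0507 to 0.135), and Cd68 not without LIRKO mouse 1468 or 1600 (adjusted p = 0.0892 and 0.0537).

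S100a8 and Retnlg, both on the list of neutrophil markers, rose by 1.98 ± 0.42 and 2.63 ± 0.64. Of 12 neutrophil markers listed, 5 were tested, and 3 of these 5 passed (1 of 5 without LIRKO mouse 1468, 2 without mice 1876 and 1877). The filter for testing counted columns of all groups. A marker high only in PiZ livers could therefore enter, and the 5 are not an unselected set. Of all genes tested, 6.83% rose. Retnlg did not pass without LIRKO mouse 1468 or 1474 (adjusted p = 0.0626 and 0.0503). The 5 tested neutrophil markers together reached 7.46 to 18.0 CPM in ZZ LIRKO and 4.80 to 7.73 in LIRKO. Of 20 lymphocyte and dendritic cell markers listed, 14 were tested by the same filter. Of these 14, 4 rose, 3 without mice 1876 and 1877, and 2 without LIRKO mouse 1468 or 1474. Ccl5, a chemokine of T and NK cells, was at -0.62 to 0.66 in LIRKO and 1.36 to 2.9999 in ZZ LIRKO (1.98 ± 0.33, adjusted p = 0.00151), and Flt3, a receptor of dendritic cell precursors, rose by 1.28 ± 0.24. None of the 5 erythroid markers passed by limma or with voom weights (1 was lower at an unadjusted p under 0.05), and none of 13 markers of pancreas, fat and muscle passed by limma, with voom weights or at an unadjusted p under 0.05. Those 13 markers summed to 10.5 to 16.1 CPM in ZZ LIRKO and 10.6 to 14.3 in LIRKO, but to 30.2 to 868 in WT and 14.1 to 45.0 in ZZ.

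**Figure D3:**
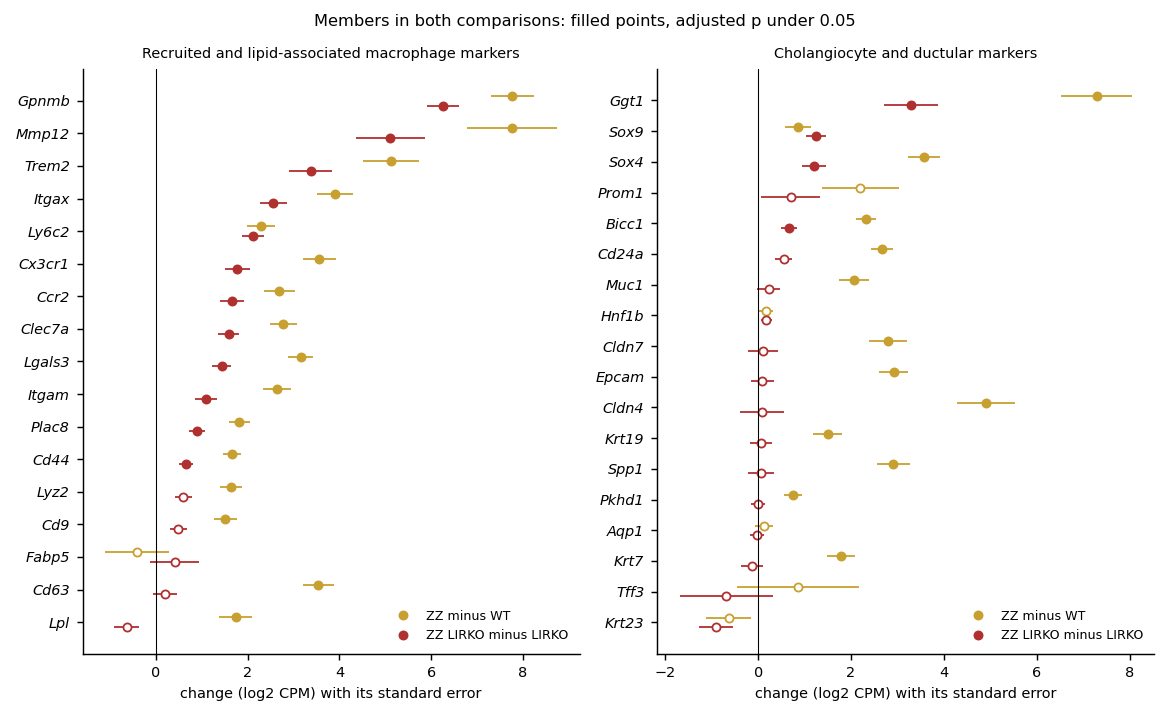
Change with its standard error (horizontal axis, log2 CPM) of each macrophage marker (left) and each ductular marker (right) in ZZ minus WT and in ZZ LIRKO minus LIRKO; filled points passed the test. Macrophage markers such as Gpnmb and Mmp12 are filled in both comparisons, whereas Epcam, Spp1 and Krt19 are filled in ZZ minus WT and open near 0 in ZZ LIRKO minus LIRKO.

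Genes of the extracellular matrix and its remodelling rose in 23 of 33 members, and none fell. All 33 changes were above 0, with a median of 1.01, and without LIRKO mouse 1468 the count was 18, and 27 without mice 1876 and 1877. Col1a1, the main chain of type I collagen in scars, measured 2.46, 2.81, 2.89 and 2.96 in LIRKO and 3.88 to 5.66 (median 4.76) in ZZ LIRKO. The rise of Col1a1 was 1.94 ± 0.32 (adjusted p = 0.00135). Col6a3, a chain of microfibrillar collagen, rose by 1.15 ± 0.15 (adjusted p = 0.000211) and Eln, which encodes elastin, by 1.01 ± 0.18 (adjusted p = 0.00265). Loxl1, an enzyme that cross-links elastin, rose by 1.37 ± 0.21, and Thbs1, a matricellular protein that activates TGF-beta, by 2.00 ± 0.34. Ccn2, connective tissue growth factor, rose by 1.404 ± 0.25, and the collagenase Mmp13 by 3.57 ± 0.65, from 6 to 14 reads in LIRKO to 8 to 472 in ZZ LIRKO.

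In ZZ against WT 31 of these 33 genes rose, and 22 rose in both comparisons. Over all genes tested, 16.1% rose in ZZ against WT and 6.83% in ZZ LIRKO against LIRKO. The interaction was lower without the receptor for 14 genes and higher for none, a count that ranged from 2 to 21 over the settings. Col1a1 rose by 3.96 ± 0.41 with the receptor and its interaction was -2.02 ± 0.52 (adjusted p = 0.0278). That interaction of Col1a1 did not pass without LIRKO mouse 1474 or 1483, WT mouse 1586 or 1601 or ZZ mouse 1682 or 1809 (adjusted p = 0.0509 to 0.0785), and without the 3 libraries above 0 log2 CPM of Prss2, a pancreatic trypsinogen, it was -1.30 (adjusted p = 0.324). Mean levels of Col1a1 were 4.72 in ZZ LIRKO and 6.57 in ZZ, and 2.78 and 2.61 in LIRKO and WT. The livers of mice 1876 and 1877 had low values for this list within ZZ LIRKO: its mean was 3.64 and 3.67 there and 3.72 to 4.47 in the other 5, all above the LIRKO range of 2.73 to 3.04.

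Hepatic stellate cells and fibroblasts make most of this matrix, and 5 of 17 of their markers rose, none fell, and 7 rose without mice 1876 and 1877. The share of all genes tested that rose was 6.83%. Pdgfrb, the receptor for platelet-derived growth factor on stellate cells, went from 3.56, 3.48, 3.74 and 3.60 in LIRKO to 4.01 to 4.53 in ZZ LIRKO, a rise of 0.73 ± 0.10 (adjusted p = 0.000537). Vim, an intermediate filament of mesenchymal cells, rose by 0.94 ± 0.16 and Cygb, a globin of stellate cells, by 0.73 ± 0.17 (adjusted p = 0.00151 and 0.012). Pdgfra, another receptor of the same growth factor, and Dpt, the matrix protein dermatopontin, rose by 0.71 ± 0.16 and 0.86 ± 0.22 with overlapping groups, and Dpt did not pass without LIRKO mouse 1468 or 1483 (adjusted p = 0.0622 and 0.0608). Acta2, the smooth muscle actin of activated stellate cells, had 1.84 to 2.74 in LIRKO and 1.94 to 3.37 in ZZ LIRKO, and its difference of 0.41 ± 0.23 did not pass (adjusted p = 0.283). Without mice 1876 and 1877 the difference of Acta2 was 0.66 and passed (adjusted p = 0.0244), and Acta2 was picked after its values were seen. Among 18 endothelial markers 3 rose (also 3 without mice 1876 and 1877), over all mice Cd34 by 1.20 ± 0.25, Vwf by 0.83 ± 0.18 and Tie1 by 0.40 ± 0.09.

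Cholangiocytes line bile ducts, and injured livers can form ductules that carry their keratins. Of 18 cholangiocyte and ductular markers, 4 rose in ZZ LIRKO and none fell, with a median change of 0.10, and 5 rose without mice 1876 and 1877. In ZZ against WT 13 rose, with a median of 2.14, and the interaction was lower for 11 of the 18 and higher for none (4 to 12 over the settings). The shares of all genes tested that rose were 6.83% in ZZ LIRKO and 16.1% in ZZ against WT. Sox9 and Sox4, transcription factors of duct progenitors, Bicc1, an RNA-binding protein of ducts, and Ggt1, gamma-glutamyl transferase, were the 4. Sox9 was at 1.67, 1.69, 1.58 and 1.44 in LIRKO and at 2.42 to 3.35 (median 2.72) in ZZ LIRKO, a rise of 1.25 ± 0.22 (adjusted p = 0.00208), against 0.86 ± 0.28 with the receptor. Sox4 rose by 1.20 ± 0.26 without the receptor and by 3.57 ± 0.34 with it (interaction -2.37 ± 0.43, adjusted p = 0.0047). Ggt1 rose by 3.29 ± 0.58 and 7.29 ± 0.76 (interaction -4.00 ± 0.95, adjusted p = 0.0195). With voom weights the rise of Ggt1 had an adjusted p of 0.103. The Ggt1 interaction had an adjusted p of 0.0675 without ZZ mouse 1682 and 0.0584 without ZZ mouse 1809. Bicc1 rose by 0.66 ± 0.17 and did not pass without LIRKO mouse 1468 or 1600 (adjusted p = 0.0506 and 0.0623).

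Epithelial markers of the list, picked after their values were seen, did not pass in ZZ LIRKO. Epcam, an adhesion molecule of biliary cells, was at 0.93, 0.99, 0.82 and 0.31 in LIRKO and at -0.23 to 1.34 (median 0.94) in ZZ LIRKO. The groups overlapped, and the difference was 0.09 ± 0.24 (adjusted p = 0.851), while ZZ minus WT was 2.92 ± 0.32 and the interaction -2.83 ± 0.40 (adjusted p = 0.00103). Spp1, osteopontin, differed by 0.05 ± 0.28 without the receptor and by 2.91 ± 0.36 with it (interaction adjusted p = 0.00227). Krt19, a keratin of bile ducts, differed by 0.05 ± 0.23 and 1.49 ± 0.30 (interaction adjusted p = 0.032). That of Krt19 did not pass without LIRKO mouse 1468 or 1483, WT mouse 1586 or 1601 or ZZ mouse 1682 or 1809 (adjusted p = 0.0602 to 0.0855), whereas the interaction of Epcam passed in every alternative tried for it. Summed over the list, ductular markers took 282 to 374 CPM in LIRKO, 266 to 522 in ZZ LIRKO, 179 to 220 in WT and 420 to 499 in ZZ.

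**Figure D4:**
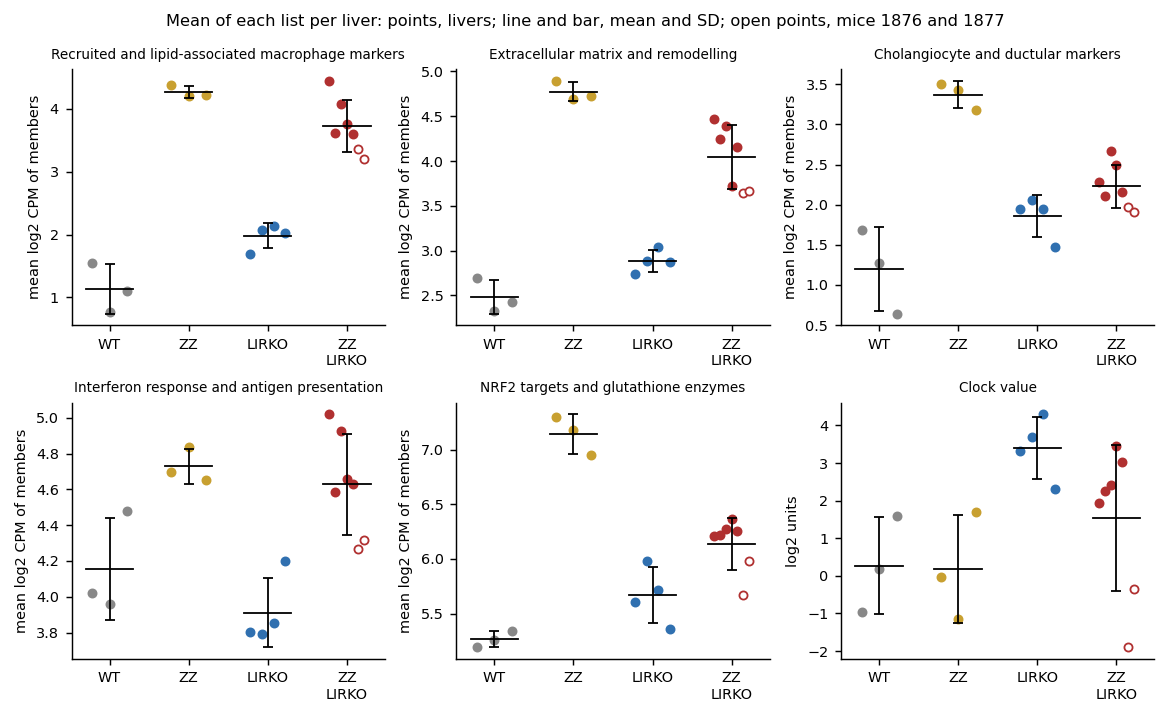
Mean log2 CPM of 5 gene lists and the clock value (vertical axes) in each liver of the 4 groups (horizontal axis), with group mean and SD; open points are mice 1876 and 1877. The macrophage and matrix means of all 7 ZZ LIRKO livers exceed those of the 4 LIRKO livers, the ductular means overlap, and the open points lie lowest of the ZZ LIRKO livers for the clock value.

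The endoplasmic reticulum (ER) answers misfolded protein through the unfolded protein response (UPR), in which ATF6 and XBP1 raise chaperones and PERK raises ATF4 and its target CHOP. Of 25 ER chaperones and folding enzymes 1 rose (4%, against 6.83% of all genes tested), Mcfd2, a cargo receptor for coagulation factors, by 0.46 ± 0.10 (adjusted p = 0.00622), and none fell. Without mice 1876 and 1877, 2 of these rose, and 1 gene each of ER-associated degradation and of the proteasome subunits described next. Hspa5, the chaperone BiP and the usual gauge of ER stress, picked after its values were seen, was at 9.18, 9.06, 9.25 and 9.24 in LIRKO and at 9.01 to 9.74 (median 9.37) in ZZ LIRKO. Its difference of 0.15 ± 0.27 did not pass (adjusted p = 0.773), nor did that of 0.02 ± 0.35 in ZZ against WT, where the WT livers themselves spread over 9.27 to 11.36. None of 25 genes of ER-associated degradation passed by limma, with voom weights or at an unadjusted p under 0.05, and their median change was 0.05. None of 32 proteasome subunits passed by limma or with voom weights, 2 were higher at an unadjusted p under 0.05, and the median change was 0.03.

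Of 28 UPR sensors, ATF4 targets and CHOP targets, 6 rose and none fell (7 and 1 without mice 1876 and 1877), against 14 higher and 4 lower in ZZ against WT. Over all genes tested, 6.83% rose and 3.73% fell in ZZ LIRKO against LIRKO. In ZZ against WT 16.1% of all genes tested rose and 14.2% fell, so the 4 lower genes were near the share of all genes. Slc7a11, the cystine importer driven by ATF4 and NRF2, had 2, 2, 8 and 9 reads in the LIRKO libraries and 65 to 318 in ZZ LIRKO (5.40 ± 0.46, adjusted p = 2.55e-06), and 1310 to 3582 in ZZ. The LIRKO levels rest on under 10 reads, so the size of that rise is uncertain. Gdf15, a stress hormone, rose from 1.32, 1.68, 1.79 and 1.64 to 2.53 to 3.78, by 1.48 ± 0.21 (adjusted p = 0.000537), and differed by 0.31 ± 0.28 with the receptor. Atf5, a transcription factor of the ATF4 branch, rose by 1.01 ± 0.17 without the receptor and differed by 0.05 ± 0.22 with it (interaction 0.97 ± 0.28, adjusted p = 0.0463). Leaving out most single livers ended that call of Atf5, with adjusted p from 0.0501 to 0.122. Psat1, an enzyme of serine synthesis, and Atf3, a transcription factor, rose by 2.17 ± 0.48 and 1.39 ± 0.31. Ddit3, the gene of CHOP, differed by 0.46 ± 0.26 (adjusted p = 0.296) and Trib3, its pseudokinase target, by 0.23 ± 0.23 (adjusted p = 0.577), against 1.46 ± 0.34 and 3.11 ± 0.30 with the receptor; both were picked after their values were seen. Trib3 means were 4.88 in LIRKO and 2.85 in WT.

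The promoters of Slc7a11, which rose, and of Hspa5, which did not pass, show the elements of the 2 branches. Slc7a11 is at chr3:50443614-50443863 on the minus strand, with 2 matches to the ATF4 element CARE (TGATG, any 1 base, AA), 66 to 59 and 47 to 40 bases before the start, the second on the other strand. Hspa5 is at chr2:34771840-34772089 on the plus strand, with 1 match to the ER stress element ERSE (CCAAT, any 9 bases, CCACG), 65 to 47 bases before the start.
Slc7a11: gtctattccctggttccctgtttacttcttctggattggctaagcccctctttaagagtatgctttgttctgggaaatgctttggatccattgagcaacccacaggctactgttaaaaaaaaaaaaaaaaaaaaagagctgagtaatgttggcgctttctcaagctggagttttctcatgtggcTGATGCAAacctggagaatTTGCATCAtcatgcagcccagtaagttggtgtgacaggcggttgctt
Hspa5: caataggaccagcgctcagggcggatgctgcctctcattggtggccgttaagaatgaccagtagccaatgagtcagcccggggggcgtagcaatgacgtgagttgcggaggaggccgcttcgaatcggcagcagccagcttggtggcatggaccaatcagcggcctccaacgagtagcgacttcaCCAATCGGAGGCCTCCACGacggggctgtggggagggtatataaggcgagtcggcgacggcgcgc
Of the chaperone genes that did not pass, 7 of the 18 with a window held an ERSE, against 0.137% of all genes with one. A CARE stood in 3 of the 6 members of the ATF4 list that rose (Atf3, Nupr1 and Slc7a11), in 6 of the 18 that did not pass and in 4.51% of all genes with a window.

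NRF2 switches on antioxidant and glutathione genes. Of 26 such genes 7 rose (26.9%) and 1 fell (3.85%), beside 6.83% and 3.73% of all genes tested. In ZZ against WT 13 of the 26 were higher, beside 16.1% of all genes tested, and the interaction was lower for 10 and higher for none. Srxn1, sulfiredoxin, was at 5.47, 6.05, 5.45 and 5.43 in LIRKO and at 6.25 to 6.74 (median 6.60) in ZZ LIRKO, a rise of 0.94 ± 0.13 (adjusted p = 0.000451). It rose by 2.46 ± 0.17 with the receptor, and the interaction was -1.51 ± 0.22 (adjusted p = 0.00117). Cbr3, a carbonyl reductase, rose by 1.24 ± 0.20 and 4.34 ± 0.26 (interaction -3.10 ± 0.33, adjusted p = 0.000171). Gstm3 and Gstm2, glutathione transferases of a family whose near-identical members make their reads uncertain, rose by 1.42 ± 0.31 and 0.84 ± 0.20, and Gstm2 did not pass without LIRKO mouse 1468 (adjusted p = 0.0599). Without LIRKO mouse 1468, 4 of the 26 rose, and 7 without mice 1876 and 1877.

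NF-kappaB and AP-1 carry inflammatory and stress signals. Over all genes tested, 6.83% rose in ZZ LIRKO against LIRKO and 16.1% in ZZ against WT. Among 22 NF-kappaB subunits and targets 8 rose and none fell, 3 of them without LIRKO mouse 1468 and 10 without mice 1876 and 1877. Traf1, an adaptor of TNF receptors, rose by 1.86 ± 0.27, Vcam1, an adhesion molecule for leukocytes, by 1.403 ± 0.22, and Tnfaip3, the inhibitor A20, by 0.996 ± 0.19 (adjusted p = 0.000621, 0.00126 and 0.0039). Of 17 AP-1 and immediate early genes 4 rose (Jun, Jund, Ier5 and Klf6), against 13 in ZZ against WT, and the count was 1 without LIRKO mouse 1468, 1474 or 1483 and 2 without mice 1876 and 1877. Jun, the AP-1 subunit, had 3.94, 3.79, 3.90 and 2.52 in LIRKO and 4.46 to 5.60 in ZZ LIRKO (1.27 ± 0.28, adjusted p = 0.00959), with the LIRKO liver 1600 far below the other 3. Klf6 rose by 0.60 ± 0.15 (adjusted p = 0.0191), and its adjusted p was 0.0625, 0.0556 and 0.056 without LIRKO mouse 1468, 1474 or 1483. Of 27 acute phase genes 6 rose (6 without mice 1876 and 1877), among them Apcs, serum amyloid P, by 1.19 ± 0.16, Cd14, the endotoxin co-receptor, by 1.32 ± 0.25, and Mt1, a metallothionein, by 1.57 ± 0.36.

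Genes of the interferon response and antigen presentation rose in 20 of 31 members (13 without LIRKO mouse 1474, 11 without 1483), none fell, and all 31 changes were above 0 with a median of 0.78. In ZZ against WT 12 rose and 1 fell, and the interaction passed for 3, all higher without the receptor. Over all genes tested, 6.83% rose in ZZ LIRKO against LIRKO and 16.1% in ZZ against WT. Oas1a, an antiviral sensor of double-stranded RNA, was at 1.28, 1.42, 1.71 and 1.45 in LIRKO and at 2.47 to 3.11 (median 2.93) in ZZ LIRKO. The rise was 1.37 ± 0.16 (adjusted p = 8.68e-05), with no overlap, and 1.77 ± 0.21 with the receptor. Oasl2 rose by 1.48 ± 0.20 and Ifi44 by 1.46 ± 0.27 (adjusted p = 0.000331 and 0.00302), both interferon-induced. Tap1, the peptide transporter for class I antigen presentation, rose by 0.78 ± 0.13 without the receptor and differed by -0.22 ± 0.17 with it (interaction 1.005 ± 0.22, adjusted p = 0.0134), and its means were 3.53 in LIRKO and 4.66 in WT. Cd74, the invariant chain of class II molecules, rose by 0.81 ± 0.15 and Ifit2 by 0.83 ± 0.16. The count was 10 without LIRKO mouse 1468 and 22 without mice 1876 and 1877, whose list means of 4.26 and 4.32 lay near the highest LIRKO liver (4.20).

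The promoter of Oas1a is shown because 2 overlapping matches to the interferon-stimulated response element (ISRE: GAAA, any 2 bases, GAAA), a motif added after the data were seen, end 5 bases before its start. It is at chr5:120907526-120907775 on the minus strand, and capitals mark both matches, 20 to 11 and 14 to 5 bases before the start.
Oas1a: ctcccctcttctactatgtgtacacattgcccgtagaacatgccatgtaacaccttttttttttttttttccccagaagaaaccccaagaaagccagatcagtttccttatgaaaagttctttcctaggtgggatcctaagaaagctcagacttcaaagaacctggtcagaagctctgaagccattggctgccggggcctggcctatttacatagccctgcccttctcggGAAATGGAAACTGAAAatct
An ISRE stood in 5 of the 16 interferon genes that rose and have a window (Gbp3, Ifit1, Oas1a, Rsad2 and Stat2), in 4 of the 7 that did not pass and in 3.99% of all genes with a window.

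Among the 15 largest falls by the rule, several were in genes whose LIRKO level was above that of WT; both comparisons use the same LIRKO livers, so these values stand side by side only. Igf2bp3, an RNA-binding protein of fetal liver and liver tumours, fell from 3.81, 3.64, 3.30 and 3.09 in LIRKO to 0.43 to 2.44 (median 1.77) in ZZ LIRKO, by 1.86 on the log2 scale (SE 0.41, adjusted p = 0.00963). Igf2bp3 averaged -2.03 in WT and -0.49 in ZZ, a rise of 1.54 ± 0.54, so the 2 changes were opposite (interaction -3.40 ± 0.68, adjusted p = 0.0078). Epb41l1, a membrane skeleton protein, fell from 6.11 ± 0.28 (SD) to 4.93 ± 0.30 and rose from 2.15 to 3.65 with the receptor (interaction -2.69 ± 0.26, adjusted p = 0.00017). Adamts7, a metalloprotease, had 5.00, 4.97, 5.00 and 4.60 in LIRKO and 3.10 to 3.66 in ZZ LIRKO, a change of -1.47 ± 0.14 (adjusted p = 7.63e-06), beside means of 3.58 in WT and 3.52 in ZZ. Lhx6, a homeobox factor, changed by -1.65 ± 0.27 from a LIRKO mean of 3.57, beside 1.26 in WT, and Dnaic1, a dynein chain of cilia, by -1.60 ± 0.43. Dnaic1 did not pass without LIRKO mouse 1468, 1474 or 1600 (adjusted p = 0.0859, 0.0629 and 0.065).

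Nox4, Mme, Plekhb1 and Hsd3b2 had LIRKO means that were not above those of WT. Nox4, a hydrogen peroxide-producing oxidase of hepatocytes and stellate cells, was at 5.97, 5.15, 5.81 and 5.57 in LIRKO and at 3.17 to 4.55 (median 4.27) in ZZ LIRKO, a change of -1.67 ± 0.29 (adjusted p = 0.00199). Mme, the peptidase neprilysin, changed by -1.16 ± 0.24 (adjusted p = 0.00703) and by 0.01 ± 0.32 with the receptor. Plekhb1 fell in both comparisons, by 1.52 and 1.89 on the log2 scale. Hsd3b2, a steroid dehydrogenase of a family with near-identical members, changed by -1.55 ± 0.48 (adjusted p = 0.0469), passed in 10 of 23 alternative settings and did not pass without any single LIRKO mouse (adjusted p = 0.0603 to 0.149). Its change was -0.91 without mice 1876 and 1877. Sox12, a transcription factor, Rnf152, a lysosomal ubiquitin ligase, and Car14, a membrane carbonic anhydrase, changed by -1.16 ± 0.21, -1.19 ± 0.18 and -1.10 ± 0.16. Their LIRKO means were above those of WT, at 3.48, 5.69 and 4.82 beside 2.77, 5.06 and 4.17.

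Several of the 10 largest falls shared with ZZ against WT were in metabolic enzymes of hepatocytes. Acaa1b, a thiolase of peroxisomal fatty acid oxidation with a close paralog, went from 10.45, 10.32, 10.17 and 9.82 in LIRKO to 8.10 to 9.30 in ZZ LIRKO, a change of -1.38 ± 0.26 (adjusted p = 0.00337), beside -0.94 ± 0.34 with the receptor. Adh4 and Adh7, alcohol dehydrogenases that also oxidise retinol, changed by -1.08 ± 0.25 and -0.89 ± 0.19, beside -1.03 ± 0.32 and -1.64 ± 0.25. Retsat, a retinol saturase, changed by -1.10 ± 0.29 (adjusted p = 0.0214) and had an adjusted p of 0.0766, 0.0581 and 0.0559 without LIRKO mouse 1468, 1474 or 1600. Hsd17b6, a steroid and retinol dehydrogenase, changed by -0.92 ± 0.20, and Nat8f1, an acetyltransferase, by -1.24 ± 0.23 (adjusted p = 0.00986 and 0.00349). Zyg11a, a ubiquitin ligase adaptor, and Slc5a3, the myo-inositol importer, changed by -0.89 ± 0.18 and -0.90 ± 0.25. Slc5a3 did not pass without LIRKO mouse 1468, 1474 or 1483 or ZZ LIRKO mouse 1783, 1813 or 1876 (adjusted p = 0.0501 to 0.102). Hnf4aos, the antisense gene of Hnf4a, changed by -0.92 ± 0.17, and without a stated strand rule its reads cannot be told from those of Hnf4a, which differed by -0.09.

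Of all genes tested, 3.73% were lower in ZZ LIRKO against LIRKO and 14.2% in ZZ against WT. Of 18 hepatocyte identity genes 3 (16.7%) fell, Onecut1, Foxa1 and Nr1i2, against 12 in ZZ against WT, and none of the 3 passed without LIRKO mouse 1468, while 3 members fell without mice 1876 and 1877. Onecut1, the factor HNF6, was at 5.87, 5.09, 5.43 and 5.02 in LIRKO and at 3.23 to 5.66 (median 3.53) in ZZ LIRKO, a change of -1.48 ± 0.36 (adjusted p = 0.0162), with the liver of mouse 1783 far above the other 6. Foxa1, a pioneer factor of liver genes, changed by -0.65 ± 0.18 and passed in 12 of 23 alternative settings. Of 31 PPARA targets and genes of fatty acid oxidation 3 (9.68%) fell, against 19 in ZZ, 2 without mice 1876 and 1877, and 1 without LIRKO mouse 1468, 1474 or 1600. Of 24 genes of bile acid synthesis and transport 3 (12.5%) fell, as many without mice 1876 and 1877, and 1 without LIRKO mouse 1468 or 1483. Abcb11, the bile salt export pump, fell from 10.07, 10.12, 9.83 and 9.76 to 8.77 to 9.42, a change of -0.82 ± 0.14 (adjusted p = 0.00169), beside -0.66 ± 0.18 with the receptor. Slc27a5 and Cyp27a1, enzymes of bile acid conjugation and synthesis, changed by -0.39 ± 0.10 and -0.57 ± 0.15. Slc27a5 did not pass without LIRKO mouse 1468, 1474 or 1483 (adjusted p = 0.0636, 0.0751 and 0.0698), nor Cyp27a1 without 1468 or 1483 (adjusted p = 0.0904 and 0.0777). Among 18 periportal and urea cycle genes Otc, ornithine transcarbamylase, and Slc25a13, the aspartate-glutamate carrier, fell (11.1%), by 0.42 and 0.39 on the log2 scale, and 2 fell without mice 1876 and 1877. None of 19 pericentral genes passed by limma or with voom weights, and 3 were higher and 1 lower at an unadjusted p under 0.05; without mice 1876 and 1877, 2 rose.

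Insulin raises lipogenic genes and lowers gluconeogenic ones. Over all genes, 10.6% were called and 3.73% were lower. In ZZ against WT 16.1% were higher and 14.2% lower. Of 21 lipogenic genes 2 (9.52%) fell, and the count was also 2 without mice 1876 and 1877. These were, over all mice, Mlxipl, the carbohydrate sensor ChREBP, from 9.21, 8.87, 9.07 and 9.11 to 8.05 to 8.65 (-0.71 ± 0.10, adjusted p = 0.000551), and Srebf1, the insulin-induced SREBP-1c, by 1.44 on the log2 scale (SE 0.44, adjusted p = 0.0463). Srebf1 passed in 9 of 23 alternative settings, not without LIRKO mouse 1468, 1474 or 1483 (adjusted p = 0.128, 0.112 and 0.144), and its groups overlapped. None of 19 FOXO1-activated and gluconeogenic genes passed by limma or with voom weights (1 was higher at an unadjusted p under 0.05), against 3 higher and 6 lower in ZZ against WT. None of 25 genes of cholesterol synthesis and uptake passed by limma, with voom weights or at an unadjusted p under 0.05, although 22 of the changes were above 0 and their median was 0.51. The ZZ LIRKO livers spread over 4.51 to 7.45 for that list's mean and the LIRKO livers over 5.24 to 6.42. Slc2a2, the glucose transporter GLUT2, changed by -0.67 ± 0.15 (adjusted p = 0.00985), 1 of 4 falls and 3 rises among 22 genes of glycolysis and glycogen (31.8%). In that list 0 rose and 2 fell without LIRKO mouse 1468, 1 rose and 2 fell without 1600, and 3 rose and 3 fell without mice 1876 and 1877. Of 18 genes of the growth hormone and IGF axis 1 rose and 2 fell (16.7% in all), the same counts without mice 1876 and 1877, and none passed without LIRKO mouse 1468. Igfbp2, a binding protein of insulin-like growth factors, changed by -0.64 ± 0.15 from a LIRKO mean of 12.35, beside 9.06 in WT, and had an adjusted p of 0.0569 without LIRKO mouse 1468.

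Sex-biased liver genes follow the pattern of growth hormone release. Of 29 female-biased genes 7 rose and none fell, with a median of 1.08, and of 21 male-biased genes 4 fell and none rose, with a median of -0.86 and all 21 changes below 0. Without LIRKO mouse 1468, 1 female-biased gene was higher and 0 male-biased genes were lower, and without mice 1876 and 1877 the counts were 4 and 2. Over all genes tested, 6.83% rose and 3.73% fell. In ZZ against WT, 3 female-biased genes were higher and 1 lower (median 0.72), and 0 male-biased genes were higher and 5 lower (median -0.52). There 16.1% of all genes tested were higher and 14.2% lower. The interaction was higher for 2 and lower for 1 of the female-biased genes, and passed for no male-biased gene. Sult1e1, the estrogen sulfotransferase, was at 1.53, -0.22, -0.72 and 0.94 in LIRKO and at 3.41 to 6.55 (median 4.68) in ZZ LIRKO, a rise of 4.67 ± 0.72 (25.4-fold, adjusted p = 0.000963). It differed by -0.08 ± 0.94 in ZZ against WT, and the interaction of 4.74 ± 1.18 passed (adjusted p = 0.0242), but not without LIRKO mouse 1483, WT mouse 1564 or ZZ mouse 1682 or 1809 (adjusted p = 0.0545 to 0.0718). A1bg, a plasma glycoprotein, and Sult3a1, a sulfotransferase with near-identical relatives, rose by 4.81 ± 1.17 and 5.43 ± 1.398, with ZZ LIRKO livers spread over -0.06 to 8.24 and 0.07 to 9.01. Without LIRKO mouse 1468 their adjusted p was 0.0622 and 0.0665, and Sult3a1 did not pass without 1474 or 1483 either (adjusted p = 0.058 and 0.0577). With voom weights the adjusted p was 0.292 for A1bg and 0.332 for Sult3a1. Susd4, Hsd3b5 and Elovl3, male-biased genes, changed by -2.75 ± 0.67, -2.42 ± 0.66 and -2.86 ± 0.86. Elovl3 passed in 9 of 23 alternative settings and Hsd3b5 in 15, and Susd4 had an adjusted p of 0.0616 without LIRKO mouse 1468 and 0.0586 without 1483. Elovl3 averaged 0.68 in LIRKO and 7.95 in WT, and Hsd3b5 1.51 and 7.14. With the clock value as a covariate 3 of the 29 female-biased genes were higher and 1 of the 21 male-biased genes lower.

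Of 20 circadian clock genes 3 fell (15%, beside 3.73% of all genes tested), among them Per2, a core repressor of the clock, and Usp2, a rhythmic deubiquitinase, and 1 fell without mice 1876 and 1877. Per2 and Usp2 changed by -1.25 ± 0.34 and -1.67 ± 0.49, had overlapping groups, and neither passed once the clock value was a covariate, nor without LIRKO mouse 1468, 1474 or 1483 (adjusted p = 0.0506 to 0.145 without these mice). With that covariate 1182 genes passed over the whole table, 922 of them also without it. Of 30 cell cycle genes 3 rose (10%) and 1 fell (3.33%), shares near the 6.83% and 3.73% of all genes tested. Mki67, a marker of dividing cells, rose by 1.10 ± 0.29, Cenpe, a centromere motor, by 0.99 ± 0.26, and Ccna2, cyclin A, by 1.15 ± 0.32, while Mcm7, a replication helicase, changed by -0.56 ± 0.11. Without mice 1876 and 1877, 6 of the 30 rose, and without LIRKO mouse 1468 only 1 rose. Without LIRKO mouse 1600 none of the 3 passed, and the adjusted p was 0.0785 for Mki67, 0.0671 for Cenpe and 0.106 for Ccna2. In ZZ against WT, where 16.1% of all genes tested rose, 15 of the 30 rose.

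Of all genes tested, 6.83% rose and 3.73% fell. Of 33 genes of autophagy and lysosomes 3 rose (9.09%), a share near that of all genes. They included the lysosomal proteases Ctss, by 0.78 ± 0.13, and Ctsd, from 8.27, 8.41, 8.43 and 8.29 in LIRKO to 8.64 to 8.93 in ZZ LIRKO (0.42 ± 0.09, adjusted p = 0.00636). Among 15 p53 targets Cdkn1a and Phlda3 rose (13.3%), none of the 15 passed without LIRKO mouse 1468, and 4 rose without mice 1876 and 1877. Of 16 fetal and liver tumour markers 4 rose (25%) and 1 fell (6.25%), Igf2bp3, and 3 rose and 1 fell without these mice. In the autophagy list 5 rose and 1 fell without them. Akr1c18, a hydroxysteroid dehydrogenase, had 3, 26, 12 and 15 reads in LIRKO and 69 to 1261 in ZZ LIRKO (5.24 ± 0.81, adjusted p = 0.000978), beside 3 to 19 in ZZ, and had an adjusted p of 0.0665 with voom weights. Among class I and class II antigen presentation genes, whose similar members make reads uncertain, H2-Eb1 rose by 0.88 ± 0.18 and H2-D1 by 0.42 ± 0.09. Ndufs1, a complex I subunit, was the 1 gene that fell among 28 of the respiratory chain (3.57%). F13b, a subunit of clotting factor XIII, was the 1 among 29 of coagulation and complement (3.45%). Both shares were near that of all genes. In ZZ against WT, where 14.2% of all genes tested fell, 11 fell in each list. Without mice 1876 and 1877 the respiratory chain had 2 falls, and coagulation and complement 1 rise and 2 falls. Of 23 alternative settings Ndufs1 passed in 8, F13b in 19 and Phlda3 in 16.

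**Figure D5:**
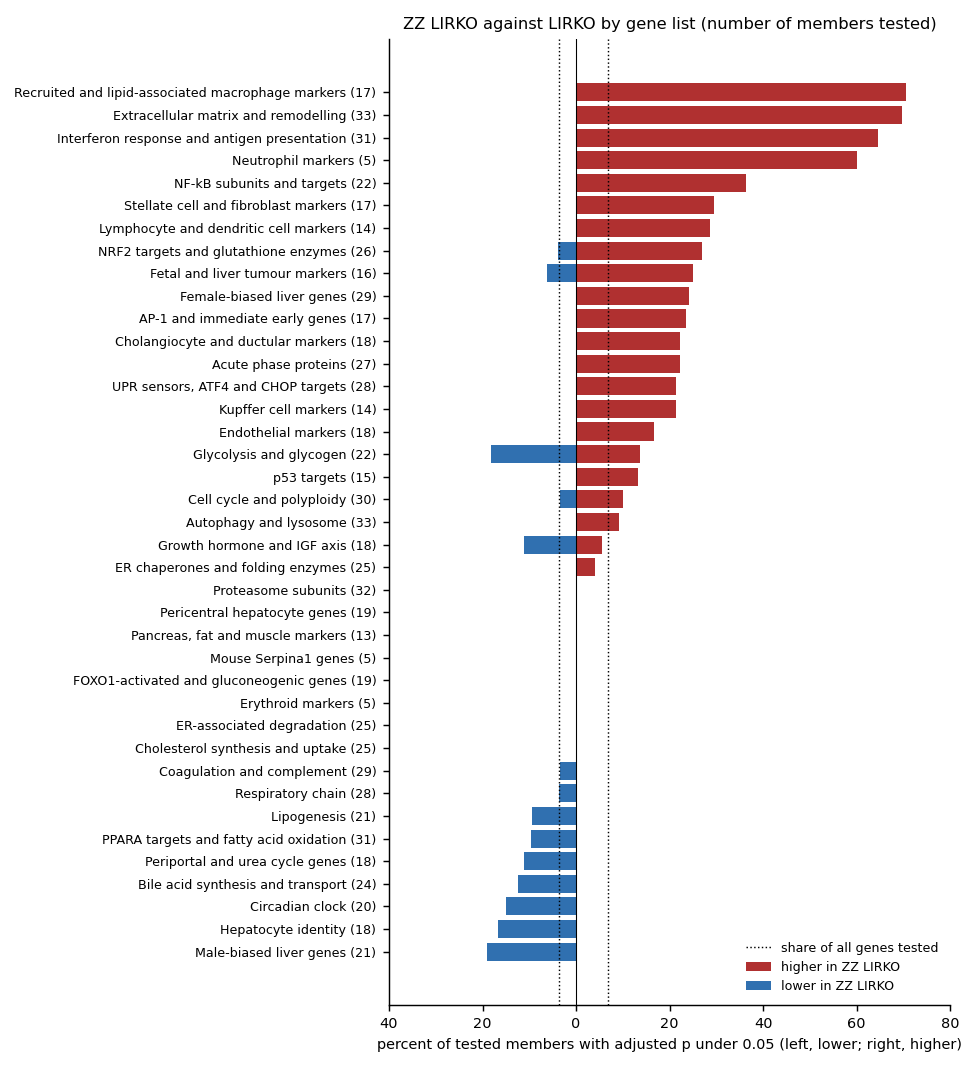
Share of the tested members of each gene list that were higher (right) or lower (left) in ZZ LIRKO than in LIRKO at an adjusted p under 0.05 (horizontal axis, percent), with the number tested in brackets; dotted lines mark 6.83% and 3.73%, the shares over all genes tested. Macrophage, matrix and interferon lists lie furthest right at 70.6%, 69.7% and 64.5%, and male-biased genes furthest left at 19%.

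The 5 largest interactions in each direction show where the receptor went with a different change. Cyp17a1, a steroid hydroxylase and lyase, was at 4.88, 5.39, 4.85 and 6.36 in LIRKO and at 4.95 to 9.50 (median 7.60) in ZZ LIRKO; its difference of 2.04 ± 0.74 did not pass (adjusted p = 0.0884, with 0.0478 under voom weights and 0.0258 without ZZ LIRKO mouse 1858), was 0.914 with the clock covariate and 1.30 without mice 1876 and 1877, and ZZ minus WT was -3.76 ± 0.96 (interaction 5.80 ± 1.21, adjusted p = 0.00978). Mfsd2a, a lysolipid transporter, G0s2, an inhibitor of fat breakdown, and Nlrp12, a regulator of inflammation, differed by 0.48 ± 0.47, 0.38 ± 0.40 and 0.68 ± 0.43 without the receptor. With it they changed by -2.78 ± 0.62, -2.46 ± 0.52 and -1.95 ± 0.56. In the other direction, Nr4a1, an immediate early nuclear receptor, and Ppp1r3g, a glycogen-targeting phosphatase subunit, differed by -0.83 ± 0.72 and -1.08 ± 0.59 without the receptor and rose by 3.78 ± 0.94 and 3.24 ± 0.77 with it. Abcc4, an export pump for bile acids, was at 3.67, 4.45, 3.88 and 3.66 in LIRKO and at 3.98 to 5.50 in ZZ LIRKO, a difference of 0.57 ± 0.25 (adjusted p = 0.167). It rose by 4.49 ± 0.33 with the receptor, and its interaction of -3.92 ± 0.41 (adjusted p = 0.000171) passed in every alternative tried for it. Adam11 fell by 2.13 on the log2 scale without the receptor and rose by 1.53 ± 0.53 with it (interaction adjusted p = 0.00477). The groups of Adam11 overlapped, at 5.02 to 6.01 in LIRKO and 1.86 to 5.09 in ZZ LIRKO. Without the 3 libraries above 0 log2 CPM of Prss2 (WT mice 1586 and 1601 and ZZ mouse 1846), the interactions of Mfsd2a, G0s2, Nlrp12, Nr4a1 and Ppp1r3g did not pass (adjusted p = 0.131, 0.245, 0.324, 0.273 and 0.161), nor did the Cyp17a1 interaction and the Adam11 interaction (adjusted p = 0.0557 and 0.0942). Leaving out single livers ended the calls of Mfsd2a (without WT mouse 1586 or ZZ mouse 1682 or 1809), Nlrp12 and Nr4a1, with adjusted p up to 0.0607, 0.0896 and 0.0649.

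A hemizygous counterpart, 4 PiZ x LIRKO (Z) livers against libraries of the same 4 LIRKO mice in a separately normalised table, gave 149 genes of 13596 (1.1%), 66 higher (0.485%) and 83 lower (0.61%). The 2 comparisons share LIRKO mice, so their values stand side by side only. Rragd rose by 1.95 in the hemizygous comparison (adjusted p = 0.00224) and by 1.86 in ZZ LIRKO, and Psat1 by 2.71 (adjusted p = 0.0119) and 2.17. Adh4 changed by -0.84 (adjusted p = 0.0177) and -1.08, and Nat8f1 by -0.66 (adjusted p = 0.0345) and -1.24. Serpina3f differed by 1.08 (adjusted p = 0.167), Gpnmb by 1.68 (adjusted p = 0.44), Lcn2 by -0.24 (adjusted p = 0.915) and Col1a1 by 0.63 (adjusted p = 0.472) in the hemizygous livers. The median change in the hemizygous livers was 0.26 for the macrophage list and 0.44 for the matrix list, beside 1.43 and 1.01 in ZZ LIRKO. Hemizygous libraries were shallower, at 18355276 to 23938315 reads in LIRKO and 17557681 to 22464664 in PiZ x LIRKO (Z).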

How the data were processed

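In the homozygous table each mouse has 1 library and counts as 1 replicate. The 43 libraries of the series came from 36 mice, because the LIRKO and WT mice also have a library in the hemizygous table. Labels of the LIRKO and WT libraries used here carry an added suffix that those of ZZ and ZZ LIRKO lack. Reads were aligned to GRCm38 with STAR 2.0.4b and counted per gene with featureCounts 1.4.5 of Subread, per the submitters' processing notes; the sources used here give no strand or filter settings. The deposited values are log2 CPM, counts relative to library size. They equal whole reads plus 0.5 over a scaled library size within 0.01 of a read for all values, which gave the reads printed. Genes at 0 log2 CPM or more in at least 3 columns of the homozygous table were tested with limma 3.58.1 (R 4.3.3), with a mean-variance trend and 1 mean for each of 4 groups over the 17 libraries, at a Benjamini-Hochberg adjusted p under 0.05. The hemizygous table was fitted separately, and 1 of its columns has no sample here and was not used. Coordinates come from GENCODE M21. Values are log2 CPM, changes log2 ± SE. The fit was also run on simulated reads drawn independently for each gene at a fixed spread. These held no difference of cohort or clock, so that run cannot gauge the effect of either here.

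Members, gene lists and comparisons were chosen with earlier results of these data known. Named genes are the 15 largest rises and 15 largest falls with a mean of at least 2 log2 CPM and no overlap between groups, the 10 largest shared rises and falls, the 5 largest interactions each way, and from each list up to 5 members of smallest p (8 where at least 50% of members passed), besides Insr, Foxo1 and the Serpina1 genes. Predicted genes were passed over. Genes outside this rule are said to be picked after their values were seen, as was Hnf4a. Alternatives were the filter, log2(CPM + 1), voom weights on the recovered reads, scaling to the sum of reads, centring on medians, robust moderation, a clock covariate, libraries without Prss2, the groups alone and each mouse left out. Leaving out mice 1876 and 1877, leaving out libraries at or under 55% even numbers among values under 40 reads, and the ISRE motif were added after seeing the data. A result for 1 clock gene is not reported here.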

Additional observations from a re-analysis of the deposited data

Results flagged for a closer look

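For 45 of the 156 genes named here, the change of ZZ LIRKO against LIRKO differed from that of ZZ against WT by the test of the interaction, on the log2 scale and at an adjusted p under 0.05. The interaction was above 0, so the change was higher without the receptor, at 5.80 for Cyp17a1, 4.74 for Sult1e1, 3.26 for Mfsd2a, 2.84 for G0s2, 2.63 for Nlrp12, 1.005 for Tap1, 0.97 for Atf5, 0.85 for Stat2 and 0.52 for Slc25a13. It was below 0 at -4.61 for Nr4a1, -4.32 for Ppp1r3g, -4.00 for Ggt1, -3.99 for Slc7a11, -3.92 for Abcc4, -3.69 for Ly6d, -3.65 for Adam11, -3.63 for Retnlg, -3.40 for Igf2bp3, -3.10 for Cbr3, -2.88 for Gstm3, -2.88 for Trib3, -2.86 for Spp1, -2.83 for Epcam and -2.69 for Epb41l1. Smaller negative interactions were -2.37 for Sox4, -2.28 for Atf3, -2.02 for Col1a1, -1.82 for Cenpe, -1.76 for Rragd, -1.73 for Lgals3, -1.72 for Cd14, -1.69 for Ddr1, -1.65 for Bicc1, -1.51 for Srxn1, -1.44 for Krt19 and -1.41 for Adamts7, and -1.39 for Phlda3, -1.18 for Loxl1, -1.13 for Eln, -1.04 for Ctss, -0.98 for Cd68, -0.98 for Cygb, -0.93 for Klf6, -0.84 for Col6a3 and -0.65 for Pdgfrb. The interactions of Rragd, Abcc4, Epb41l1, Srxn1, Cbr3, Epcam and Trib3 passed under every alternative tried for them.

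In 18 of 314 groups of values examined, 1 liver lay far from the others of its group, where chance alone gives about 1 in 20. The values are log2 CPM, with the range of the other livers of the group in brackets. LIRKO mouse 1468 measured -3.53 for Trem2 (others -1.26 to -1.10) and 2.47 for Vcam1 (others 3.10 to 3.15). LIRKO mouse 1474 measured 6.05 for Srxn1 (others 5.43 to 5.47), 4.28 for Mcm7 (others 4.16 to 4.18), -0.19 for Elovl3 (others 0.89 to 1.02) and -4.27 for Prss2 (others -7.30 to -6.99). LIRKO mouse 1600 measured 4.60 for Adamts7 (others 4.97 to 5.00), 2.52 for Jun (others 3.79 to 3.94), 4.23 for Klf6 (others 3.99 to 4.03), 4.37 for Mfsd2a (others 5.20 to 5.25), -1.19 for Sult3a1 (others -3.05 to -2.84) and 2.94 for Ifit1 (others 1.44 to 1.68). ZZ LIRKO mouse 1783 measured 3.16 for Ccr2 (others 1.96 to 2.26) and 5.66 for Onecut1 (others 3.23 to 4.04). ZZ LIRKO mouse 1813 measured 2.75 for Mme (others 3.54 to 4.03) and 3.74 for Bicc1 (others 2.68 to 3.05). ZZ LIRKO mouse 1855 measured 5.50 for Abcc4 (others 3.98 to 4.62). ZZ LIRKO mouse 1876 measured 5.91 for Foxo1 (others 4.34 to 5.00).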

How the results depend on the processing

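The count for ZZ LIRKO against LIRKO (1445) ranged from 621 to 1500 when single ZZ LIRKO or LIRKO mice were left out and from 1367 to 1510 when single ZZ or WT mice were, lowest without LIRKO mouse 1468 and 906 without LIRKO mouse 1483, and stayed within 1.5 times of 1445 under every other alternative run. Leaving out single mice gave 3126 to 3801 genes for ZZ against WT, 442 to 1159 for the interaction (lowest without ZZ mouse 1682), 2548 to 3750 for ZZ LIRKO against ZZ and 460 to 943 for genes called in both directions alike (lowest without LIRKO mouse 1468). Without the libraries above 0 log2 CPM of Prss2, ZZ against WT gave 1964 and the interaction 340, and without libraries at or under 55% even numbers the interaction gave 347 and ZZ LIRKO against ZZ 2281. Scaling to the sum of reads gave 2313 interactions. The cause of these moves was not tested, and fewer samples entered the fit wherever libraries were left out.

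Values near 0 that did not pass changed sign. With the clock value as a covariate Clec4f was -0.0580, Hspa5 -0.0464 and Foxo1 -0.26. Foxo1 was -0.21 without mice 1876 and 1877 and ranged from -0.13 to 0.13 with single mice left out. Without libraries at or under 55% even numbers Spp1 was -0.0852 and Epcam -0.0030. With single mice left out, Insr, Clec4f, Krt19, Spp1 and Epcam ranged from -0.11 to 0.0381, -0.0190 to 0.0821, -0.15 to 0.27, -0.12 to 0.21 and -0.0576 to 0.27. No named call in ZZ LIRKO against LIRKO changed sign.

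No paired analysis was possible because no mouse is in both groups and the mouse numbers are not shared between them. Leaving out libraries over 55% even numbers was not run, since it leaves 3 libraries and 0 of LIRKO. Depth limits the folds of genes with few LIRKO reads, such as Slc7a11 and Trem2.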

Other observations

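Gm13974, a long intergenic noncoding RNA gene at chr2:114854093-115043972 on the plus strand (GRCm38), was looked for after the values were seen, by asking which genes had at most 10 reads in every WT and LIRKO library and at least 100 in every ZZ LIRKO library. It was the 1 gene found. Gm13974 had 0 reads in every WT library and 0 to 2 in LIRKO, 3621 to 6585 (median 5832) in ZZ and 1148 to 4202 (median 2820) in ZZ LIRKO. Its mean was 5.38 ± 0.51 log2 CPM (SD, n = 7) in ZZ LIRKO and 6.47 ± 0.28 (n = 3) in ZZ, a difference of -1.08 that did not pass (limma adjusted p = 0.103). The search chose the gene by its reads in ZZ LIRKO and LIRKO, so an adjusted p of that comparison would be no support and is not given. The interaction also uses the groups by which the gene was chosen, with WT and LIRKO near 0 reads, so its adjusted p is not given either. Of 4 tested genes within 1 Mb of Gm13974, 0 were called in ZZ LIRKO against LIRKO, beside 10.6% of all genes tested. With only 4 genes, that count cannot show whether the neighbourhood differs from the other genes.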
